A study of Mus musculus with 6 samples.

Results

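Interferon response and antigen presentation genes were followed in RNA-seq of mouse intestinal organoids, epithelial cultures that renew and differentiate in a dish, grown in low glutamine medium (3 libraries) or in control medium (3 libraries). Every library carried the Apc Min genotype, a truncating allele of a Wnt pathway inhibitor, so no wild-type organoid is among these groups. The samples are labelled as primary cells in vitro, and no source used here gives the glutamine dose, the time in medium, the animals or their age. The 38 genes were taken by symbol from a table of 24956 rows of RPKM, read numbers scaled to transcript length and to library depth, and all 38 were found. They comprised 4 interferon receptor chains, 5 interferon transcription factors, 3 cytosolic RNA sensors, 10 interferon-stimulated effectors, 11 genes of the MHC class I pathway and 5 of the class II pathway.

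Interferons are secreted proteins that signal from surface receptors through JAK kinases to STAT and IRF transcription factors. These switch on genes that restrain viruses and genes that display peptides on the cell surface. Class I molecules are carried by nearly all nucleated cells and present peptides cut by the proteasome to CD8 T cells, whereas class II molecules present peptides from the lysosomal route to CD4 T cells. Intestinal epithelium responds to type III as well as type I and type II interferons, and it can express class II molecules when stimulated by interferon gamma.

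In low glutamine organoids the MHC class I heavy chains H2-K1, H2-D1 and H2-T23, beta-2-microglobulin and the immunoproteasome subunits were lower, at 0.711 to 0.836 of their control RPKM. The transcription factors Stat2 and Irf7 and the effectors Ifi35 and Bst2 were lower by larger folds, whereas Ddx58, Irf1, Ifnar2, Irf9, Oas1a and Tapbp were higher. The groups also differed in transcripts tied to sex, and that difference cannot be told apart from the medium for any of these genes. Of the 38 genes, 25 averaged 1 RPKM or more across all 6 libraries and were tested, and 6 of them rose and 14 fell (limma on log2(RPKM + 1), Benjamini-Hochberg adjusted p under 0.05). Oas1a, counted among the 6, reached that limit only through low glutamine and did not pass after quantile normalization. Among the 14, H2-K1 and H2-D1 did not pass after quantile normalization either. Psmb9 and Psmb10 did not pass after rescaling to a common RPKM sum, nor did H2-T23 when Rn45s was left out of that sum. Of all 11082 tested genes 66.4% were called, 36.1% as higher (4001 genes) and 30.3% as lower (3360 genes), beside 20 of the 25 members. The RPKM ranges of the groups did not overlap for 70.2% of all tested genes, 38.9% with low glutamine higher and 31.3% with it lower, and for 20 of the 25 members, so a lack of overlap is common in these libraries. The split of all genes depended on scaling, with 5689 higher and 2543 lower after rescaling to a common RPKM sum and 6040 and 2385 when Rn45s was left out of that sum. For the members these rescalings gave 7 higher and 12 lower, and 7 higher and 11 lower. The median log2 fold change was -0.24 over the 25 members and 0.03 over all tested genes. The other 13 members lay below the limit, and most class II genes and classical effectors were among them. The members that passed the limit are therefore not a picture of all 38.

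**Figure D1:**
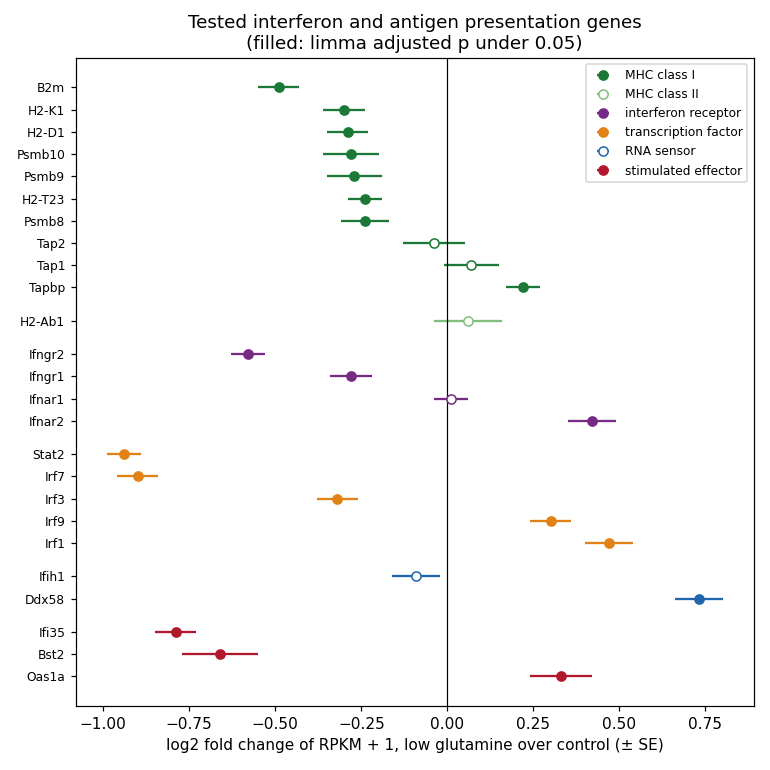
Log2 fold change of RPKM + 1, low glutamine over control, with its SE, for the 25 tested members grouped by role (points, filled where the limma adjusted p was under 0.05). The class I genes lie between -0.49 (B2m) and 0.22 (Tapbp), and the widest spread is among the transcription factors, with Stat2 at -0.94 and Irf1 at 0.47.

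Depth was estimated at 28.3 to 34.0 M (mega) reads in the low glutamine libraries and at 24.4 to 35.4 M reads in the control libraries. All 8 epithelial markers (Epcam, Cdh1, Vil1, Krt8, Krt18, Krt19, Cdx1 and Cdx2) were above 1 RPKM, with sums of 2488 to 2571 RPKM in low glutamine and 2006 to 2180.3 RPKM in control. The sums hide a split, with 4 called higher (Epcam, Cdh1, Krt8 and Krt18) and 4 called lower (Vil1, Krt19, Cdx1 and Cdx2) in low glutamine. Of 17 immune cell markers, 16 stayed below 1 RPKM in every library. Their sum was 2.98 to 3.07 RPKM in low glutamine and 2.04 to 2.22 RPKM in control, and Cd3g, Nkg7, Adgre1 and Tyrobp were among those listed at 0 throughout. The exception was Cd68, a lysosomal protein, at 1.998 ± 0.188 RPKM in low glutamine and 0.685 ± 0.113 RPKM in control (SD, n = 3 each). The rise of Cd68 was larger than the difference between the immune sums, so the other 16 markers together were not higher in low glutamine. Of 10 stromal and endothelial markers 9 stayed below 1 RPKM, Col3a1 was listed at 0, and the sum was 11.3 to 13.3 RPKM in low glutamine and 3.42 to 4.16 RPKM in control, most of it Vim. Transcripts tied to sex set the groups apart as well. Xist stood at 0.0286 ± 0.00577 RPKM in low glutamine and 87.3 ± 3.78 RPKM in control, and the Y-linked Eif2s3y at 27.7 ± 3.25 RPKM in low glutamine and at 0 in every control library. The medium and this difference coincide in all 6 libraries and cannot be told apart for any gene or count given above or below. In RNA of whole cultures, fewer cells of a type and less RNA per cell cannot be told apart either.

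Promoter sequences are shown to set the direction of change beside the element through which interferon signals. The interferon-stimulated response element (ISRE), bound by the complex that holds Stat2 and Irf9 and by other IRF proteins, was searched as 2 GAAA blocks with 2 bases of any kind between them, on both strands. The window ran from 250 bases before to 50 bases after the annotated start. RefSeq promoters of GRCm38.p6 (mm10) were found for 31 of the 38 genes. The motif lay in 11 of them (35.5%), against 4.0% of all 27025 gene symbols in that table. Of these 11 genes, 7 were tested, and 2 rose, 4 fell and 1 was not called. The gamma-activated site (GAS), an element of the interferon gamma response, was searched as TTCNNNGAA, a motif that reads alike on both strands. It lay in 8 of the 31 (25.8%) and in 9.6% of all symbols, and of its 7 tested genes 3 rose and 3 fell. Of all tested genes 36.1% were called higher and 30.3% lower, and a link between motif and direction was not tested. The stretches below run 5′ to 3′ on the strand of the gene, with the motif in capitals. Where the ISRE lies on the other strand, the capitals read as TTTC blocks. The first 4 genes fell, the next 2 rose, and the next 3 lay below the limit for testing.
Stat2, ISRE, chr10:128270256-128270305, plus strand: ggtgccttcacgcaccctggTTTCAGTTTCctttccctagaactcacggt
Bst2, 2 ISRE matches that overlap, chr8:71537567-71537622, minus strand: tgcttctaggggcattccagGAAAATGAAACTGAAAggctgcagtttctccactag
B2m, ISRE, chr2:122147528-122147577, plus strand: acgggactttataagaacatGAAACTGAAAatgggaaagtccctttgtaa
H2-T23, ISRE, chr17:36032796-36032845, minus strand: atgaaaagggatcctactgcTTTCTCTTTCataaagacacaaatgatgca
Ddx58, ISRE, chr4:40239804-40239833, minus strand: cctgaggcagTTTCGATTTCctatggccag
Oas1a, 2 ISRE matches that overlap, chr5:120907523-120907552, minus strand: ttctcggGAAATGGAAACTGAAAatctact
Rsad2, ISRE, chr12:26456543-26456592, minus strand: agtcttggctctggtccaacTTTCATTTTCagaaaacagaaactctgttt
Ifit1, 2 ISRE matches, chr19:34640765-34640833, plus strand: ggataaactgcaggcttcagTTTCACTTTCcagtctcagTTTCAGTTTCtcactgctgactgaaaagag
Isg15, 3 ISRE matches that overlap, chr4:156200855-156200916, minus strand: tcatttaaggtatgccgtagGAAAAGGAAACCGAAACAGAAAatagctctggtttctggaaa
The GAS is shown in the promoters of a transcription factor that rose and of an immunoproteasome subunit that fell.
Irf1, GAS, chr11:53769904-53769952, plus strand: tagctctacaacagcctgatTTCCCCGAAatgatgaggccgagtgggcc
Psmb8, GAS, chr17:34198078-34198126, plus strand: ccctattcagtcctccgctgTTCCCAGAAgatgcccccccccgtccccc

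Interferon ligand transcripts were at or near 0. Of 12 ligand genes, 10 were listed at 0 in every library, among them Ifnb1 and Ifng, and the highest value of any was 0.107 RPKM, for Ifnk. The type I receptor pairs Ifnar1 with Ifnar2, and the type II receptor pairs the ligand-binding chain Ifngr1 with the signalling chain Ifngr2. Ifnar1 (chromosome 16, 91485032 to 91510523 of GRCm38.p6) stood at 7.97, 7.95 and 8.25 RPKM in low glutamine and at 8.14, 8.15 and 7.69 RPKM in control, with groups that overlapped (adjusted p = 0.87). Ifnar2 measured 3.84, 3.65 and 4.40 RPKM in low glutamine and 2.71, 2.80 and 2.59 RPKM in control. All its low glutamine values were above all control values, and it rose by a log2 fold change of 0.42 ± 0.07 SE (limma adjusted p = 1.3e-04). The annotated gene Gm21970 covers 9.5% of the exonic bases of Ifnar2 on the same strand.

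Both chains of the interferon gamma receptor fell. Ifngr2 (chromosome 16, 91547059 to 91564007) measured 47.8, 49.99 and 52.4 RPKM in low glutamine and 74.2, 76.3 and 74.6 RPKM in control (log2 fold change -0.58 ± 0.05, limma adjusted p = 1.4e-06). Ifngr1 measured 55.1, 54.5 and 63.8 RPKM in low glutamine and 70.1, 70.3 and 70.8 RPKM in control (-0.28 ± 0.06, limma adjusted p = 0.0021). Neither gene's groups overlapped, and low glutamine replicate 3 was the nearest to control for both. Per kilobase, the gamma receptor chains were thus at a level several times that of Ifnar1 and Ifnar2 in either medium. Of the type III receptor, the specific chain Ifnlr1 averaged 2.72 ± 0.106 RPKM in low glutamine and 2.995 ± 0.0871 RPKM in control (adjusted p = 0.13). Its shared chain Il10rb averaged 21.7 ± 0.509 RPKM in low glutamine and 30.9 ± 1.28 RPKM in control (SD, n = 3 each), and fell (-0.49 ± 0.05, limma adjusted p = 4.7e-06).

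The transcription factors of the pathway moved in both directions. Stat2, which acts with Irf9 at the ISRE (chromosome 10, 128270498 to 128292853), stood at 3.75, 3.68 and 3.83 RPKM in low glutamine and at 8.27, 8.06 and 8.11 RPKM in control. Its 3 low glutamine libraries rested on 572, 543 and 485 reads and its control libraries on 1156, 1277 and 886 reads. The groups lay far apart, and Stat2 fell by a log2 fold change of -0.94 ± 0.05 (limma adjusted p = 6.2e-09). Irf7, which amplifies type I interferon production, measured 1.55, 1.73 and 1.77 RPKM in low glutamine and 3.79, 4.21 and 3.99 RPKM in control (-0.90 ± 0.06, limma adjusted p = 7.6e-08). Irf3, which relays signals from nucleic acid sensors, measured 13.4, 13.3 and 14.97 RPKM in low glutamine and 17.5, 17.6 and 17.6 RPKM in control (-0.32 ± 0.06, limma adjusted p = 3.0e-04).

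Irf9 and Irf1 went the other way. Irf9, the DNA-binding part of the complex with STAT2, measured 4.18, 3.77 and 3.92 RPKM in low glutamine and 2.91, 3.21 and 2.94 RPKM in control (0.30 ± 0.06, limma adjusted p = 6.9e-04). Stat2 and Irf9, which act in 1 complex, thus differed in direction in the same libraries. Irf1, an activator of class I genes downstream of interferon gamma, measured 3.48, 3.53 and 4.003 RPKM in low glutamine and 2.57, 2.52 and 2.06 RPKM in control (0.47 ± 0.07, limma adjusted p = 1.3e-04). Replicate 3 was the highest Irf1 library of the low glutamine group and the lowest of the control group.

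Of the other 14 genes listed for receptor and kinase signalling, 12 were tested. Of these 12, 1 rose and 6 fell (median log2 fold change -0.15), beside 36.1% higher and 30.3% lower over all tested genes. With either rescaling to a common RPKM sum 3 rose and 3 fell, so this split depended on scaling. The largest change was that of Irf8, a factor best known from myeloid cells, which averaged 10.8 ± 0.231 RPKM in low glutamine and 24.1 ± 1.22 RPKM in control (-1.09 ± 0.05, limma adjusted p = 3.1e-09).

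**Figure D2:**
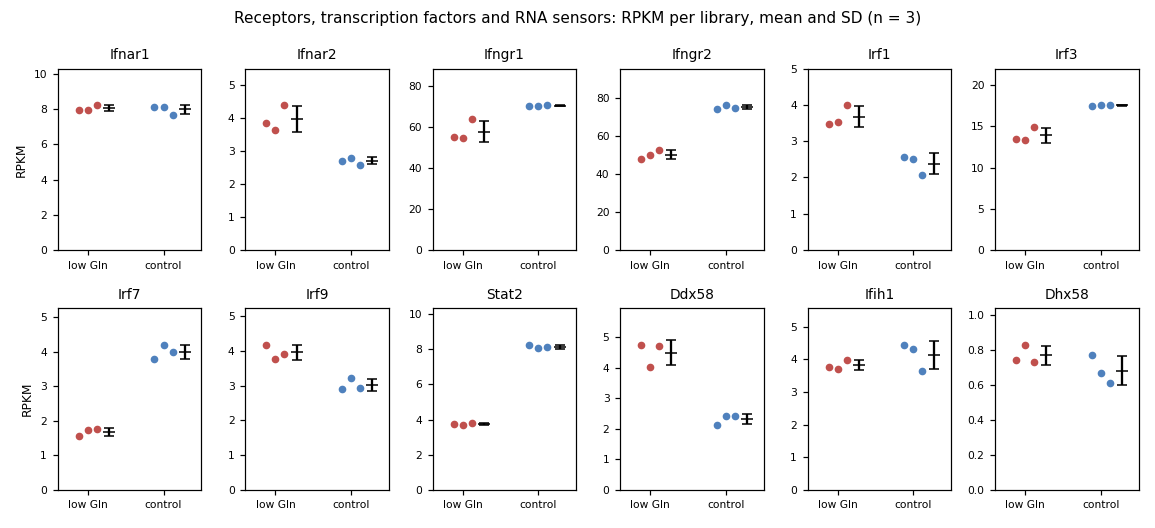
RPKM in each library (points) with mean and SD (black, n = 3) for 4 receptor chains, 5 transcription factors and 3 RNA sensors, low glutamine (low Gln, red) left of control (blue), each axis starting at 0. Stat2 and Irf7 sit lower and Ddx58 and Ifnar2 higher in all 3 low glutamine libraries, while the points of Ifnar1, Ifih1 and Dhx58 overlap.

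The 3 RNA sensors of the RIG-I family, helicases that detect viral RNA in the cytosol, did not move together. Ddx58, which encodes RIG-I (chromosome 4, 40203777 to 40239825), measured 4.75, 4.01 and 4.70 RPKM in low glutamine and 2.12, 2.40 and 2.43 RPKM in control. The groups did not overlap, and Ddx58 rose by a log2 fold change of 0.73 ± 0.07 (limma adjusted p = 1.6e-06). Ifih1, which encodes MDA5, measured 3.78, 3.69 and 3.99 RPKM in low glutamine and 4.45, 4.32 and 3.64 RPKM in control, with overlapping groups (adjusted p = 0.27). Control replicate 3 lay below all low glutamine values and the other 2 controls above them. Without it Ifih1 passed as lower (-0.16, adjusted p = 0.033, with 0.012 to 0.85 over the alternatives). Dhx58, which encodes the regulator LGP2, was below the limit, at 0.743, 0.831 and 0.734 RPKM in low glutamine and 0.770, 0.668 and 0.611 RPKM in control. Of 18 further genes of nucleic acid sensing, 15 were tested, and 6 rose and 5 fell (median -0.01). Over all tested genes 36.1% were called higher and 30.3% lower. Tmem173, which encodes the DNA sensing adaptor STING, averaged 2.52 ± 0.183 RPKM in low glutamine and 0.202 ± 0.0283 RPKM in control (1.55 ± 0.07, limma adjusted p = 1.1e-09). It reached the limit for testing only through its low glutamine libraries. Mavs, the mitochondrial adaptor on which RIG-I and MDA5 act, averaged 10.7 ± 0.328 RPKM in low glutamine and 20.5 ± 0.795 RPKM in control (-0.88 ± 0.05, limma adjusted p = 1.8e-08). The ubiquitin ligase Trim25 averaged 21.1 ± 1.32 RPKM in low glutamine and 17.6 ± 0.769 RPKM in control (0.25 ± 0.06, limma adjusted p = 0.0027).

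Interferon-stimulated effectors were mostly at low levels, and 7 of 10 lay below the limit. Of the 3 tested, Ifi35, an interferon-induced leucine zipper protein (chromosome 11, 101448412 to 101458701), measured 5.62, 5.65 and 5.86 RPKM in low glutamine and 10.6, 11.2 and 9.97 RPKM in control (-0.79 ± 0.06, limma adjusted p = 8.3e-08). The gene Gm11626 on the opposite strand covers 16.8% of its exonic bases. Bst2, the tetherin that holds budding viruses at the membrane, measured 7.40, 7.13 and 5.31 RPKM in low glutamine and 11.8, 12.02 and 9.14 RPKM in control (-0.66 ± 0.11, limma adjusted p = 2.4e-04). Replicate 3 was the lowest Bst2 library in both groups, and the groups did not overlap. Oas1a, an oligoadenylate synthetase that senses double-stranded RNA, measured 1.38, 1.34 and 1.33 RPKM in low glutamine and 0.811, 1.15 and 0.666 RPKM in control (0.33 ± 0.09, limma adjusted p = 0.0056). It reached the limit for testing only through its low glutamine libraries, where it was higher. Of its 50-base transcript windows 57.6% also occur in Oas1g, so the assignment of its reads is uncertain. After quantile normalization Oas1a no longer passed (0.08, adjusted p = 0.48, with 6.4e-05 to 0.48 over the alternatives).

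Among the 7 effectors below the limit, the RPKM values came out as whole reads for 5. Rsad2, which encodes the antiviral enzyme viperin, rested on 54, 63 and 47 reads in low glutamine and on 10, 5 and 2 reads in control. Its RPKM values were 0.419, 0.505 and 0.439 in low glutamine and 0.0846, 0.0373 and 0.0216 in control, a ratio of means of 9.50. Ifit2, an interferon-induced protein with tetratricopeptide repeats, rested on 100, 75 and 72 reads in low glutamine and on 24, 23 and 21 reads in control, with a ratio of mean RPKM of 3.41. The groups of both genes were wide apart at these read numbers. Oasl2, an oligoadenylate synthetase-like antiviral protein, went down, with 37, 31 and 42 reads in low glutamine and 64, 78 and 45 reads in control (ratio of mean RPKM 0.577). With no limit on low values the same fit called Rsad2 (limma adjusted p = 1.1e-04) and Ifit2 (2.9e-04) higher and Oasl2 (0.0091) lower. In that fit 48.8% of all genes were called, 30.2% as higher and 18.6% as lower. With the limit at 0.3 RPKM, Ifit2 rose and Oasl2 and Ifit1 fell, where 65.6% of all genes were called, 37.5% as higher and 28.1% as lower. Ifit2 reached that limit only through its low glutamine libraries and Ifit1 only through its control libraries, so their calls there describe genes that had to differ.

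Ifit1, a relative of Ifit2 that binds viral RNA caps, stood at 0.183, 0.171 and 0.160 RPKM in low glutamine and at 0.474, 0.896 and 0.395 RPKM in control, and the fit with no limit called it lower (limma adjusted p = 0.025). Ifit1 and Ifit2, of 1 gene cluster on chromosome 19, thus went opposite ways. Of the windows of Ifit1, 7.1% occur in Ifit1bl2, and of those of Ifit3 51.2% occur in Ifit3b. Ifit3 stood at 0.157, 0.162 and 0.266 RPKM in low glutamine and 0.0962, 0.159 and 0.0893 RPKM in control, with overlapping groups (limma adjusted p = 0.11 with no limit). Isg15, a ubiquitin-like modifier strongly induced by interferon, rested on 1, 4 and 4 reads in low glutamine and 4, 5 and 2 reads in control. Usp18, the protease that removes it, rested on 6, 1 and 3 reads in low glutamine and 3, 2 and 3 reads in control. No difference in these 2 genes was detectable at this depth.

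**Figure D3:**
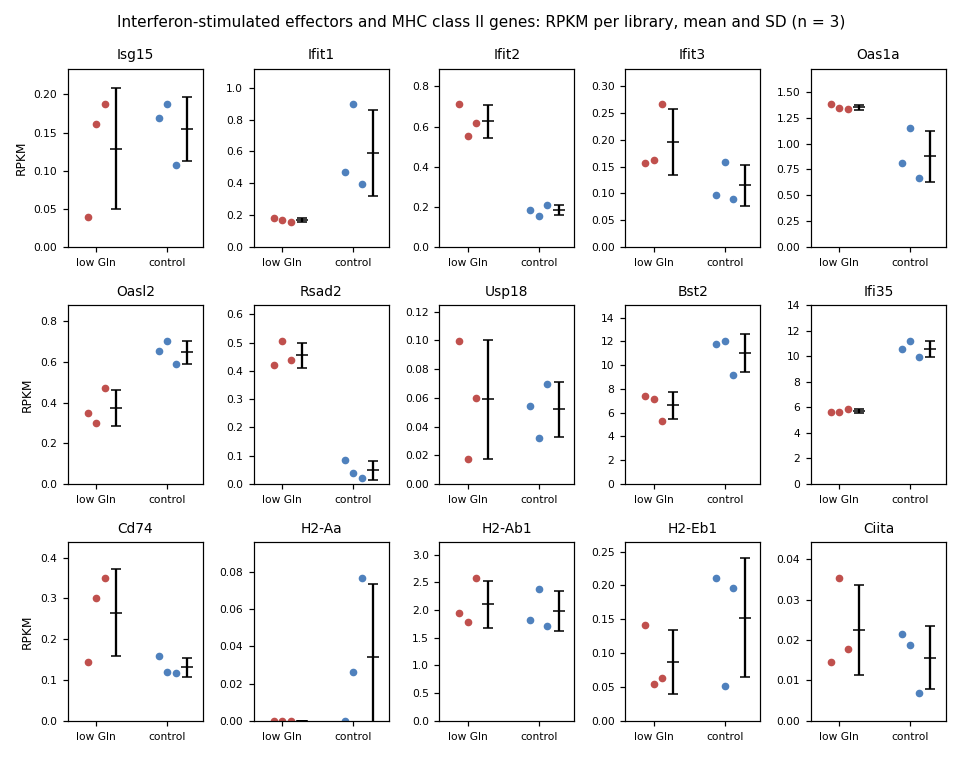
RPKM in each library (points) with mean and SD (black, n = 3) for 10 interferon-stimulated effectors and 5 class II genes, low glutamine (low Gln, red) left of control (blue), each axis starting at 0 on its own scale. Rsad2 and Ifit2 are higher and Ifi35, Bst2, Oasl2 and Ifit1 lower in all 3 low glutamine libraries, and the class II panels other than H2-Ab1 stay at or below 0.350 RPKM.

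Of 54 other interferon-stimulated genes, 38 lay below the limit, and of the 16 tested 7 rose and 5 fell (median log2 fold change 0.16). These counts depended on the limit, with 15 higher and 5 lower of 26 at a mean of at least 0.3 RPKM, and 23 higher and 7 lower of 51 with no limit. Of all genes 36.1% were higher and 30.3% lower at 1 RPKM, 37.5% and 28.1% at 0.3 RPKM, and 30.2% and 18.6% with no limit. Some genes reached 0.3 RPKM only through low glutamine, such as Cxcl10 (mean 1.05 RPKM there and 0.0859 RPKM in control). Their higher calls describe genes that had to differ. Of the 16 tested at 1 RPKM, 8 rose and 3 fell without control replicate 1, and 10 rose and 3 fell with either rescaling to a common sum. The membrane protein Ly6e averaged 199 ± 14.5 RPKM in low glutamine and 68.6 ± 1.05 RPKM in control (1.52 ± 0.06, limma adjusted p = 5.8e-10). The oligoadenylate synthetase-like Oasl1 averaged 1.33 ± 0.103 RPKM in low glutamine and 9.66 ± 0.377 RPKM in control (-2.19 ± 0.06, limma adjusted p = 1.0e-11). Ifitm2, which blocks virus entry, averaged 255 ± 19.7 RPKM in low glutamine and 171 ± 7.86 RPKM in control (0.57 ± 0.07, limma adjusted p = 1.4e-05).

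MHC class I genes held the 3 highest levels of the 38 per kilobase. In the class I pathway 7 of the 10 tested fell, 1 rose and 2 were not called (median log2 fold change -0.26). Of all tested genes 30.3% were called lower and 36.1% higher. B2m, the light chain that all class I molecules share (chromosome 2, 122147687 to 122153082), measured 159, 152 and 163 RPKM in low glutamine and 230.3, 222 and 215 RPKM in control. Every low glutamine library was below every control library, and B2m fell by a log2 fold change of -0.49 ± 0.06 (limma adjusted p = 1.3e-05). The classical heavy chain H2-K1 (chromosome 17, 33996012 to 34000619) measured 189, 181 and 198 RPKM in low glutamine and 233, 244 and 224 RPKM in control (-0.30 ± 0.06, limma adjusted p = 9.9e-04). The classical heavy chain H2-D1 measured 65.1, 63.2 and 64.8 RPKM in low glutamine and 79.8, 82.3 and 74.1 RPKM in control (-0.29 ± 0.06, limma adjusted p = 7.5e-04). H2-T23, which encodes the nonclassical Qa-1 that engages natural killer cell receptors, measured 17.7, 17.4 and 17.7 RPKM in low glutamine and 20.1, 22.4 and 20.6 RPKM in control (-0.24 ± 0.05, limma adjusted p = 0.0018). None of the 3 heavy chains overlapped between groups, as was so for 70.2% of all tested genes. Of their 50-base transcript windows, 8.8% for H2-K1, 14.3% for H2-D1 and 28.8% for H2-T23 occur in transcripts of other genes, most of them class I genes, so part of their reads could be split among copies.

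**Figure D4:**
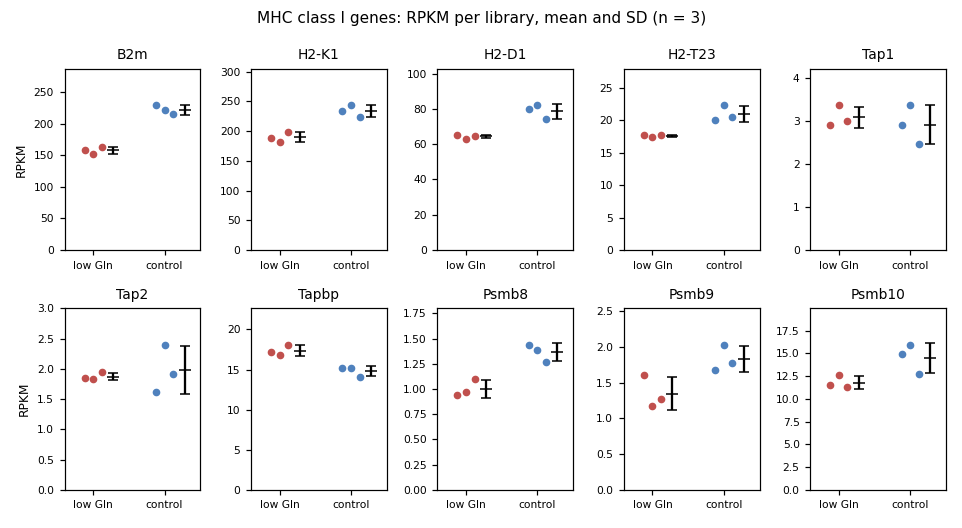
RPKM in each library (points) with mean and SD (black, n = 3) for 10 class I pathway genes, low glutamine (low Gln, red) left of control (blue), each axis starting at 0. B2m, H2-K1, H2-D1 and H2-T23 are lower in every low glutamine library, Tapbp is higher in every one, and Tap1 and Tap2 overlap.

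The peptide supply genes split. The immunoproteasome subunits replace constitutive subunits in interferon-exposed cells and change which peptides are cut. Psmb8 measured 0.937, 0.968 and 1.10 RPKM in low glutamine and 1.44, 1.39 and 1.27 RPKM in control (-0.24 ± 0.07, limma adjusted p = 0.0074), on 38 to 39 reads in low glutamine and 38 to 60 reads in control. Psmb9 measured 1.60, 1.17 and 1.27 RPKM in low glutamine and 1.67, 2.03 and 1.78 RPKM in control (-0.27 ± 0.08, limma adjusted p = 0.011). Without low glutamine replicate 2 the adjusted p of Psmb9 was 0.051, and over the alternatives it ran from 6.9e-04 to 0.086. Psmb10 measured 11.5, 12.6 and 11.3 RPKM in low glutamine and 14.9, 15.97 and 12.7 RPKM in control (-0.28 ± 0.08, limma adjusted p = 0.0063). The highest low glutamine value of Psmb10 and of Psmb9 came close to the lowest control value. The constitutive counterparts Psmb5, Psmb6 and Psmb7 averaged 58.2 ± 2.65, 65.5 ± 3.04 and 78.3 ± 9.93 RPKM in low glutamine. In control they averaged 60.5 ± 6.14, 66.5 ± 0.684 and 73.7 ± 3.57 RPKM, and none was called (adjusted p = 0.57, 0.74 and 0.40). After either rescaling to a common sum, and after quantile normalization, 2 of these 3 passed as higher.

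Within a library, a ratio of 2 genes does not depend on library scaling. Psmb8 was 1.55% to 1.99% of Psmb5 in low glutamine and 2.20% to 2.38% in control. Psmb9 was 1.84% to 2.51% of Psmb6 in low glutamine and 2.48% to 3.06% in control, and Psmb10 was 12.6% to 17.3% of Psmb7 in low glutamine and 16.4% to 22.1% in control. The mean log2 ratios differed by -0.40, -0.42 and -0.38, and the ranges overlapped for Psmb9 and Psmb10. H2-K1 was 118% to 122% of B2m in low glutamine and 101% to 110.1% in control, so the light chain was lower by more than this heavy chain. The log2 ratios of H2-K1 and of H2-D1 to B2m differed by 0.19 and 0.20, without overlap. These ratios are descriptions, with no test.

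**Figure D5:**
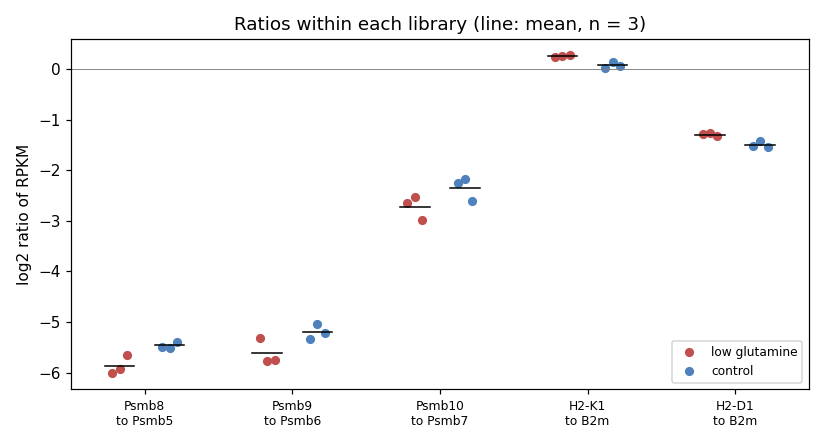
Log2 ratio of RPKM within each library (points, line at the mean, n = 3) for 3 immunoproteasome subunits over their constitutive counterparts and for 2 class I heavy chains over B2m, low glutamine (red) left of control (blue). The 3 subunit ratios are lower by 0.38 to 0.42 in low glutamine and both ratios to B2m are higher by 0.19 to 0.20.

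The TAP transporter subunits, which pump peptides into the endoplasmic reticulum, did not differ detectably. Tap1 measured 2.90, 3.37 and 3.01 RPKM in low glutamine and 2.90, 3.38 and 2.48 RPKM in control (adjusted p = 0.50). Tap2 measured 1.85, 1.83 and 1.94 RPKM in low glutamine and 1.62, 2.40 and 1.91 RPKM in control (adjusted p = 0.68). Tapbp, the tapasin that holds empty class I molecules at the transporter (chromosome 17, 33919478 to 33929290), was the 1 class I member that rose. It measured 17.2, 16.8 and 18.1 RPKM in low glutamine and 15.2, 15.2 and 14.04 RPKM in control (0.22 ± 0.05, limma adjusted p = 0.0036). Exons of genes on the opposite strand cover 24.9% of its exonic bases, with 18.5% for Tap2 and 14.7% for Psmb8, and no source used here gives the strand setting of the counting. Nlrc5, the transactivator of class I genes, was listed at 0 in 5 libraries and at 0.00846 RPKM in low glutamine replicate 1.

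With library scaling the smaller class I falls shifted. With each library rescaled to a common RPKM sum without Rn45s, the median of all genes moved to 0.17, and 4 class I members fell rather than 7. B2m, H2-K1, H2-D1 and Psmb8 still passed there, and no called class I member reversed under any of the 15 alternatives. After quantile normalization H2-K1 (-0.05, adjusted p = 0.20) and H2-D1 (-0.09, adjusted p = 0.085) no longer passed. Over all alternatives the adjusted p ran from 3.0e-05 to 0.20 for H2-K1 and from 3.2e-05 to 0.085 for H2-D1.

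Other class I and peptide loading genes held larger changes in both directions. Of 20 listed, 17 were tested. Of these 17, 4 rose and 7 fell (median log2 fold change -0.05), beside 36.1% higher and 30.3% lower over all tested genes. The balance turned with scaling, with 7 higher and 5 lower after either rescaling to a common sum and after quantile normalization. Without low glutamine replicate 3, 2 rose and 9 fell, and without control replicate 3, 2 rose and 6 fell. With no limit on low values 2 rose and 8 fell. The class Ib heavy chain H2-Q1 averaged 2.50 ± 0.278 RPKM in low glutamine and 15.3 ± 0.349 RPKM in control (-2.22 ± 0.06, limma adjusted p = 1.8e-11). H2-T3, which encodes the thymus leukaemia antigen of gut epithelium, averaged 4.08 ± 0.415 RPKM in low glutamine and 15.8 ± 1.19 RPKM in control (-1.73 ± 0.07, limma adjusted p = 5.1e-10). The others that fell were H2-Q2 (-1.57), H2-Q10 (-1.43), Tapbpl (-0.74), Psme2 (-0.24) and Psme3 (-0.23). Among those that rose, named after their values were seen, the class Ib heavy chain H2-M3 averaged 2.21 ± 0.123 RPKM in low glutamine and 0.622 ± 0.257 RPKM in control (1.0 ± 0.10, limma adjusted p = 1.9e-06). Cd1d1, which presents lipids, averaged 2.65 ± 0.261 RPKM in low glutamine and 0.851 ± 0.0164 RPKM in control (0.98 ± 0.07, limma adjusted p = 8.7e-08). Both of these reached the limit for testing only through low glutamine. The heavy chain H2-Q4 averaged 9.70 ± 0.50 RPKM in low glutamine and 8.21 ± 1.01 RPKM in control, with overlapping groups (0.22 ± 0.08, limma adjusted p = 0.021). The H2 genes belong to a family of similar copies, and their single-gene values are uncertain for that reason. The chaperones Calr and Pdia3 averaged 326 ± 16.1 and 205 ± 15.8 RPKM in low glutamine and 321 ± 3.93 and 183 ± 3.72 RPKM in control. Calr was not called (adjusted p = 0.75), and Pdia3 rose by 0.16 ± 0.07 (limma adjusted p = 0.049).

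Of the 5 MHC class II genes, 4 lay near the floor in both media and below the limit, and H2-Ab1 was tested. H2-Ab1, a class II beta chain, measured 1.95, 1.78 and 2.58 RPKM in low glutamine and 1.83, 2.39 and 1.72 RPKM in control (adjusted p = 0.64), on 70 to 87 reads in low glutamine and 50 to 101 reads in control. Its alpha chain partner H2-Aa had 0 reads in all 3 low glutamine libraries and 0, 1 and 2 reads in control. Levels of the 2 chains of the heterodimer thus differed widely in every library. H2-Eb1, the other beta chain, had 8, 3 and 3 reads in low glutamine and 11, 3 and 8 reads in control. The invariant chain Cd74, which escorts class II molecules, had 7, 14 and 14 reads in low glutamine and 7, 6 and 4 reads in control. Ciita, the master regulator of class II transcription, had 3, 7 and 3 reads in low glutamine and 4, 4 and 1 reads in control. With no limit on low values none of these 4 was called (limma adjusted p = 0.086 for Cd74, 0.20 for H2-Aa, 0.34 for H2-Eb1 and 0.53 for Ciita), and no difference was detectable at this depth.

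The lysosomal genes named here, which process class II peptides, stood above H2-Ab1 in RPKM in both media and moved in both directions. Of 16 other class II pathway genes, 8 were tested, and 2 rose and 5 fell (median log2 fold change -0.23). Over all tested genes 36.1% were called higher and 30.3% lower. Ifi30, a lysosomal thiol reductase induced by interferon gamma, averaged 163 ± 2.40 RPKM in low glutamine and 341 ± 17.9 RPKM in control (-1.06 ± 0.06, limma adjusted p = 1.4e-08). The protease Ctss averaged 4.91 ± 0.970 RPKM in low glutamine and 9.69 ± 0.498 RPKM in control (-0.87 ± 0.09, limma adjusted p = 5.0e-06), and the protease Lgmn 14.97 ± 0.432 RPKM in low glutamine and 17.2 ± 0.179 RPKM in control (-0.19 ± 0.05, limma adjusted p = 0.0050). The protease Ctsl, named after its values were seen, rose and averaged 18.7 ± 1.58 RPKM in low glutamine and 12.3 ± 0.360 RPKM in control (0.57 ± 0.06, limma adjusted p = 5.9e-06).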

How the data were processed

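RNA of 6 libraries was sequenced after extraction with a Qiagen kit and preparation with TruSeq kits, per the labels' protocols. The authors deposited RPKM values in a single table of 6 columns. Partek, HISAT2 2.0.4, CASAVA 1.8 and the mm10 build are listed in the submitters' processing notes without their roles. The annotation, counting rule, read length and strand setting are not given in the sources used here. Labels call the samples of a group biological replicates without saying whether animals or cultures differ, so a p-value here reflects sample-to-sample spread that may be technical.

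The test was limma (version 3.58.1, run under R 4.3.3) with log2(RPKM + 1) as response, low glutamine over control and a variance trend. It covered 11082 genes that averaged 1 RPKM or more. All p-values are two-sided and Benjamini-Hochberg adjusted across those genes, with calls under 0.05. Fold changes on this scale understate those of low genes. Depth was estimated from single-exon genes whose lowest values equal 1 read of the RefSeq length. Reads behind a member were taken as whole where a length near that of a GENCODE M21 transcript gave whole numbers in all 6 libraries. The tolerance was 0.02 reads, and the length could lie outside the range of the gene's transcripts, as for Ifit2 (4135 bases). Whole reads were found for 22 of 38 members, and the reads cover counting error only. Gene bounds are RefSeq on GRCm38.p6, and exon overlaps and 50-base windows come from GENCODE M21 on the same assembly.

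The members and gene lists were chosen with earlier results of these data known, so no test was made over a list. All 38 members are named, and from each pathway list up to 2 genes with the smallest adjusted p and up to 2 with the highest mean, plus Ifnlr1, the constitutive proteasome subunits and sex-linked genes. Some genes that this rule names are not reported here. Other genes named in markers and ligands were chosen for their level. H2-M3, Cd1d1, H2-Q4, Ctsl, Cxcl10, H2-Q2, H2-Q10, Tapbpl, Psme2 and Psme3 were named after their values were seen. Same-numbered libraries of the groups shared deviations from their group means (r = 0.154, 0.245 and 0.565 for numbers 1, 2 and 3), all above 0.1, although the low glutamine library 1 also correlated at 0.361 with control library 2. Tables and plots used Python 3.11.15, pandas 2.3.3, numpy 2.4.6 and matplotlib 3.10.9.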

Additional observations from a re-analysis of the deposited data

How the results depend on the processing

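Of 25 tested members, 16 kept their call in each of 15 alternatives, and no call reversed. In the fits that tested 25 members, 5 to 7 rose and 11 to 15 fell. With no limit on low values 8 of 38 members rose and 16 fell, where 30.2% of all genes were higher and 18.6% lower. With the limit at 0.3 RPKM 7 of 29 rose and 16 fell, where 37.5% of all genes were higher and 28.1% lower. A fit with the replicate number as a block gave 6 members higher and 14 lower and changed no member's call. In it 4192 genes were higher and 3544 lower. Of 10 effectors tested with no filter on low values 3 rose and 4 fell, and of 6 with a mean of at least 0.3 RPKM 2 rose and 4 fell. Ifit2 reached 0.3 RPKM only through low glutamine and Ifit1 only through control. Of the 3 effectors tested after quantile normalization 0 rose. Of the sensors 1 fell after quantile normalization. Tap2 and Ifih1 passed as lower after quantile normalization (-0.24 and -0.19), and Oas1a, H2-K1 and H2-D1 did not pass. With rescaling to a common sum Psmb9 and Psmb10 did not pass, nor did H2-T23 when Rn45s was left out. The cause was not tested. Receptors that rose numbered 2 with either rescaling to a common sum, the added one being Ifnar1. Without Rn45s in that rescaling, 4 class I members fell and 6040 of all genes rose. With each library left out in turn, sensors that fell numbered 0 to 1, class I members that fell 6 to 7, members that fell 13 to 15, and all genes that rose 3605 to 3913. The number of reads limits the genes under 1 RPKM, where 1 to 14 reads stood behind Isg15, Usp18, Cd74 and Ciita in the libraries.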
